A study of Mus musculus with 13 samples.

Results

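The genes described here are 42 genes of blood vessels: 17 that mark endothelial identity, 7 of endothelial activation and vascular tone, 4 growth factors, 6 of pericytes and 8 of the contractile apparatus of smooth muscle. They and their roles were chosen by gene symbol with earlier results of these data known. Of these genes, 42 of 42 were measured among the 15437 genes of the table. Expression was measured in sciatic nerve of 24-week-old BKS mice with Affymetrix arrays, on 6 db/db arrays (numbered 110, 111, 112, 409, 410 and 411) and 7 db/+ arrays (numbered 101, 103, 104, 105, 106, 404 and 407). Mice with 2 db copies lack a working leptin receptor and develop obesity and diabetes, while the db/+ controls carry 1 db copy and 1 normal copy. The labels do not say whether each array is a separate animal, so p-values measure the spread between these samples, and they do not say what the sample numbers mark.

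Vessels in nerve are lined by endothelial cells, which seal the blood-nerve barrier with junction proteins, control vascular tone and clotting, and display adhesion molecules when activated. Pericytes wrap the capillaries, and smooth muscle cells with a contractile actin-myosin apparatus surround the larger vessels of the epineurium. Angiopoietin and platelet-derived growth factor signals pass between the endothelium and these mural cells, and loss of capillary and mural cell integrity is a known feature of diabetic nerve.

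Values are log2 expression levels, so that a difference of 1 is a doubling, and differences are db/db minus db/+ with the standard error of the fit. Levels of different genes were not set against each other, since each probe set has its own response. A gene is said to have risen or fallen only where limma's moderated test, two-sided, gave a Benjamini-Hochberg adjusted p below 0.05 over all 15437 genes. In whole nerve, fewer cells of a type and less RNA per cell cannot be told apart.

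The tissue label was checked against marker genes. Mbp, which encodes a structural protein of myelin, ranged over 12.90 to 13.27 (median 13.08) in db/db and 13.03 to 13.46 (median 13.25) in db/+. The list mean of 7 Schwann cell and myelin markers was 9.75 to 10.96 in db/db and 10.48 to 11.62 in db/+, and 4 of the 7 fell over all arrays and 0 with the smaller set of controls described next. Neuron markers split the db/+ arrays: their list mean was 6.95 to 7.66 in db/db, 7.57 to 8.94 on db/+ 105, 404 and 407, and 11.12 to 11.83 on db/+ 101, 103, 104 and 106. Neuronal cell bodies do not lie in the sciatic nerve trunk, and 10 of 12 neuron markers fell over all arrays and 4 of 12 against db/+ 105, 404 and 407, beside 11.7% and 6.78% of all genes. Results are given over all 13 arrays and again with db/+ 105, 404 and 407 as the only controls, here called the 3 controls. These were chosen with earlier results of these data known. They are the db/+ arrays low in neuron markers, so the smaller fall of those markers against them follows from the choice. The adipocyte list mean was 12.30 to 12.60 in db/db and 11.02 to 12.28 in db/+, without overlap over all arrays. Of 8 adipocyte markers, 5 rose over all arrays and 2 with the 3 controls, and 0 fell. Of all genes, 13.4% and 6.12% were higher in these comparisons. The skeletal muscle list mean was 6.63 to 11.47 in db/db and 7.18 to 12.11 in db/+. The fibroblast list mean was 12.33 to 12.56 in db/db, 12.84 to 12.92 on the 3 controls and 12.24 to 12.48 on the other db/+ arrays. The perineurial list mean was 10.62 to 11.02 in db/db, 11.17 to 11.45 on the 3 controls and 10.37 to 11.04 on the other db/+ arrays. Both lists were thus lower in db/db without overlap against the 3 controls only. RNA integrity was read from how far the 3' actin control exceeded the 5' one, by 0.48 to 0.92 in db/db and by 0.40 to 1.39 in db/+ on the log2 scale. The part of these lists and of RNA integrity in the vascular results was not tested.

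Over all arrays the smooth muscle genes Smtn, Myh11 and Cnn1, the angiopoietin receptor Tek, its ligand Angpt1 and the anticoagulant receptor Thbd fell in db/db nerve. The myosin kinase gene Mylk, the mural genes Mcam and Notch3, and the endothelial genes Cdh5, Esam, Flt1, Robo4 and Pdgfb rose. Over all 13 arrays, 8 of 42 members rose and 6 fell, together 33.3%, against 25.1% of all genes called in this comparison (13.4% higher and 11.7% lower). With db/+ 105, 404 and 407 as the only controls, 5 rose and 5 fell, together 23.8%, against 12.9% of all genes (6.12% higher and 6.78% lower). In both comparisons 8 members were called: Robo4, Esam, Mcam and Mylk rose, and Tek, Thbd, Angpt1 and Smtn fell. The comparisons share all db/db arrays and db/+ 105, 404 and 407, so the same direction in both is not separate evidence. The count over all arrays was 9 without db/db 409. The count with the 3 controls was 4 without db/+ 404, and 5 without db/+ 407, db/db 111 or db/db 410.

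The roles had different medians, compared here without a test. The median difference over the 8 contractile members was -0.60 over all arrays and -0.82 with the 3 controls, beside 0.02 and -0.05 for all genes. The 17 identity members had medians of 0.08 and -0.09, and the 6 pericyte members 0.19 and 0.03. For the 7 activation members the medians were 0.06 and -0.44, and for the 4 growth factors 0.40 and 0.29.

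**Figure D1:**
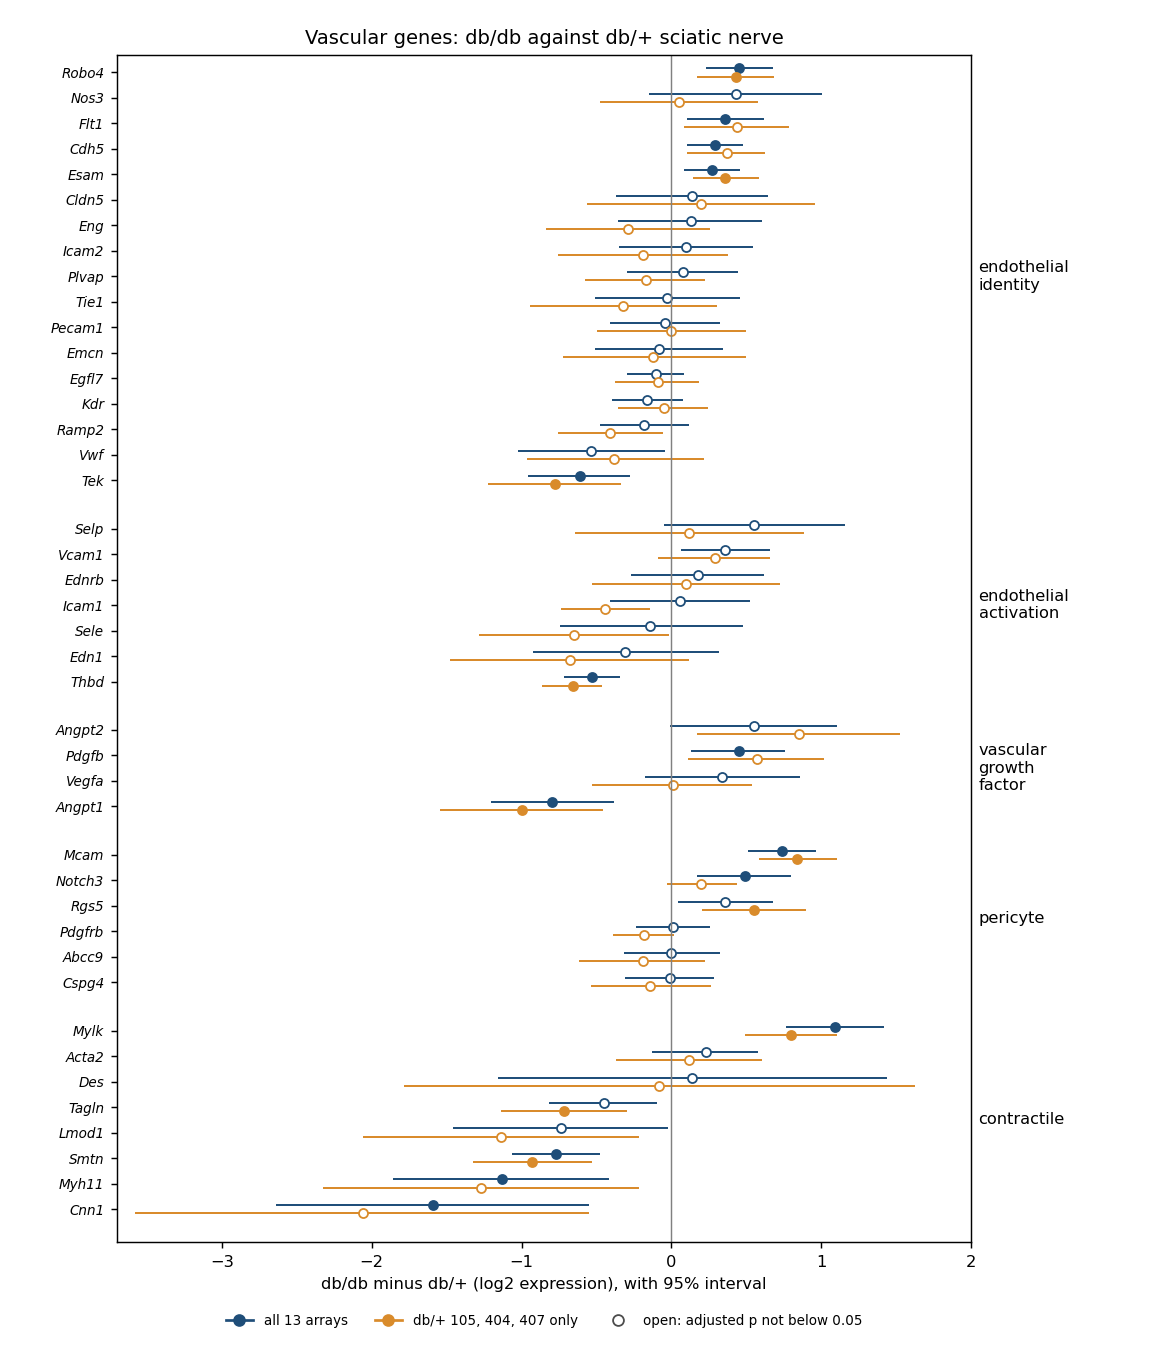
Difference in log2 expression, db/db minus db/+, of the 42 genes grouped by role, with 95% confidence intervals, over all 13 arrays (blue) and with db/+ 105, 404 and 407 as controls (orange). Filled circles passed the test and open circles did not. Over all arrays Mylk lies highest, at 1.09, and Cnn1, dim in db/db, lowest, at -1.59.

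The contractile genes encode the filaments of smooth muscle and the enzyme that starts contraction. Over all arrays 3 of 8 fell (Myh11, Cnn1 and Smtn), 1 rose (Mylk), and Acta2, Tagln, Lmod1 and Des did not pass the test. Tagln and Smtn fell and Mylk rose with the 3 controls. The shares called were 50.0% and 37.5%, against 25.1% and 12.9% of all genes. The list mean of the 8 was 9.27 to 10.21 in db/db and 9.46 to 11.05 in db/+. It was 11.05 on db/+ 407, 10.55 on db/+ 404 and 9.46 on db/+ 105, so the 3 controls lay apart from each other in this role.

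For the contractile genes on which this contrast turns, and for Acta2, the 250 bases before the annotated start are shown, from RefSeq on GRCm38.p6. Smooth muscle promoters are known for CArG boxes, bound by serum response factor. Capitals mark a CArG-like match, defined as CC, then 6 bases of which at most 1 is G or C, then GG. The windows are Acta2 (chr19:34255374-34255623, minus strand), Mylk (chr16:34784700-34784949, plus strand), Smtn (chr11:3539293-3539542, minus strand) and Cnn1 (chr9:22099003-22099252, plus strand).
Acta2: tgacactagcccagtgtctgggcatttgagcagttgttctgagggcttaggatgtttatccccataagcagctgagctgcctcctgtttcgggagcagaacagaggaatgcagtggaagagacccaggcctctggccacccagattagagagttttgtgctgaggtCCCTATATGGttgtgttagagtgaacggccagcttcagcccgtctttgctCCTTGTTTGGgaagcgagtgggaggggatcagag
Mylk: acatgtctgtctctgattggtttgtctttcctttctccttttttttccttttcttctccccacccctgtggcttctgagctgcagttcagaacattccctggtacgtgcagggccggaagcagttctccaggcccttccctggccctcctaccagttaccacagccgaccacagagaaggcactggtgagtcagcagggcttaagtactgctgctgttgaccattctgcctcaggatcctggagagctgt
Smtn: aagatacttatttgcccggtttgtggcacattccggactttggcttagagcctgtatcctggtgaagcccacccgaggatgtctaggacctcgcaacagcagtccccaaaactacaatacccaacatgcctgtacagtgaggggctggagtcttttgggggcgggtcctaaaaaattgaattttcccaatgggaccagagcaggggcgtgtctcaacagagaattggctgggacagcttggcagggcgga
Cnn1: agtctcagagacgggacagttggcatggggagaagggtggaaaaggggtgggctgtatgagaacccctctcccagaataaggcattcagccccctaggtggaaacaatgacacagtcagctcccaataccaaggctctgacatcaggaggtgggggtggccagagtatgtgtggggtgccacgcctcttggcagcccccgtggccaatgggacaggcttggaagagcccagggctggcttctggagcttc
Acta2 held 2 matches, with first bases at -84 and -34 from the start, and the Mylk, Smtn and Cnn1 windows held 0. Among all 32851 RefSeq promoters, 8.59% held such a match, and among the members 4 of 29 windows did (13.8%). Those were 1 of 6 contractile windows (16.7%) and 3 of 11 windows of endothelial identity genes (27.3%). A match is a description of letters, and its absence says only that these letters are not in this window.

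Mylk, the myosin light chain kinase that triggers contraction, had the largest difference above 0 of the 42 genes over all arrays. It read 11.64, 11.92, 12.09, 11.79, 12.05 and 11.58 on the db/db arrays, against 10.27, 10.42, 10.76, 11.02, 10.73, 11.02 and 11.08 on the db/+ arrays, in the order of array numbers given above. The lowest db/db array lay above the highest db/+ array. The difference was 1.09 ± 0.15, a 2.12-fold rise (limma, adjusted p = 0.000286), and 0.80 ± 0.13 with the 3 controls (limma, adjusted p = 0.00553). The call held when any 1 array was left out of either comparison. On arrays 404 to 411 alone the difference was 0.75 and did not pass (limma, adjusted p = 0.0567).

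Smoothelin, encoded by Smtn, is an actin-binding protein of differentiated contractile smooth muscle. Its levels were 9.32, 9.68, 9.45, 9.49, 9.52 and 9.34 on the db/db arrays, against 9.93, 10.07, 10.20, 9.91, 10.28, 10.74 and 10.53 on the db/+ arrays. Again the groups did not overlap, here with every db/db array lower. The difference was -0.77 ± 0.14 over all arrays (1.7-fold lower, limma adjusted p = 0.00167) and -0.93 ± 0.17 with the 3 controls (limma, adjusted p = 0.0092).

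Smooth muscle myosin heavy chain, encoded by Myh11, read 8.45, 8.85, 8.92, 8.96, 9.06 and 9.63 on the db/db arrays, against 9.68, 10.16, 10.47, 8.78, 9.73, 10.78 and 11.19 on the db/+ arrays. Of the db/+ arrays, only 105 lay inside the db/db range. The difference was -1.13 ± 0.33 over all arrays (limma, adjusted p = 0.0257), and -1.27 ± 0.47 with the 3 controls (adjusted p = 0.109), where it did not pass. The call over all arrays was lost without db/+ 104 and without db/db 110. Leaving out 1 array moved the difference with the 3 controls between -2.0 and -0.8, and Myh11 passed without db/+ 105 (limma, adjusted p = 0.00464).

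Tagln, or SM22, is an actin-associated protein of smooth muscle. It read 12.03, 12.22, 12.32, 12.60, 12.46 and 12.59 on the db/db arrays, against 12.36, 12.69, 12.60, 12.66, 12.86, 13.22 and 13.39 on the db/+ arrays. The db/db range took in db/+ 101 and, at 2 decimals, 104, but lay below db/+ 105, 404 and 407. The difference was -0.45 ± 0.16 over all arrays and did not pass in limma (adjusted p = 0.0597), though it passed without db/+ 101. The exact permutation p was 0.0186. Permutation p-values were computed for all 42 members and are not adjusted for the number of genes. They are printed here and below only for some members that did not pass over all arrays, so they do not replace the limma call. With the 3 controls Tagln fell by 0.72 (0.19 SE, limma adjusted p = 0.0337), and this call was lost without db/+ 404, db/+ 407 or any 1 of db/db 110, 111, 112 and 410.

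Calponin 1 (Cnn1), another actin-binding protein, averaged 4.72 ± 0.41 in db/db and 6.32 ± 1.22 in db/+ (SD, n = 6 and 7). Its db/db values, 4.42 to 5.49, were low for these arrays, and the table carries no detection calls that would separate them from background. The size of its difference is therefore uncertain, and a filter on dim genes left Cnn1 out. It fell over all arrays (difference -1.59 ± 0.48, limma adjusted p = 0.029) and did not pass with the 3 controls (difference -2.06 ± 0.67, limma adjusted p = 0.0761). The control values of the smaller comparison ran from 4.84 on db/+ 105 to 8.74 on db/+ 407. The call over all arrays was lost without db/db 110, 111 or 409. In the smaller comparison the difference lay between -3.04 and -1.09 when 1 array was left out, and Cnn1 passed without db/+ 105 (limma, adjusted p = 0.00853).

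The smooth muscle actin gene Acta2 passed in neither comparison. Its range was 12.18 to 12.90 (median 12.77) in db/db and 12.03 to 12.87 (median 12.45) in db/+. The difference of Acta2 was 0.23 ± 0.16 over all arrays (95% interval -0.12 to 0.57) and 0.12 ± 0.21 with the 3 controls. Leiomodin 1 (Lmod1), an actin filament nucleator, ranged over 7.30 to 8.28 (median 7.68) in db/db and 7.73 to 9.81 (median 8.26) in db/+. Its difference was -0.74 ± 0.33 (limma, adjusted p = 0.116, exact permutation p = 0.0565). Lmod1 was called lower in a fit that took the lower and higher runs of sample numbers as blocks (difference -0.91 ± 0.27, limma adjusted p = 0.0257). Its difference against the 3 controls was -1.14 ± 0.41 (limma, adjusted p = 0.0999), between -1.69 and -0.66 when 1 array was left out, and it passed without db/+ 105 (adjusted p = 0.0181). Both groups overlapped in each of these genes.

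Desmin (Des), an intermediate filament of smooth and striated muscle, ranged over 8.84 to 12.03 (median 9.07) in db/db and 8.58 to 11.17 (median 9.38) in db/+. It was high on db/db 112 and 411 and on db/+ 101 and 407. Those are also the 4 arrays with the highest skeletal muscle list means, at 10.66 and 11.47 in db/db and 12.11 and 11.02 in db/+. Its difference of 0.14 ± 0.60 did not pass (limma, adjusted p = 0.887).

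**Figure D2:**
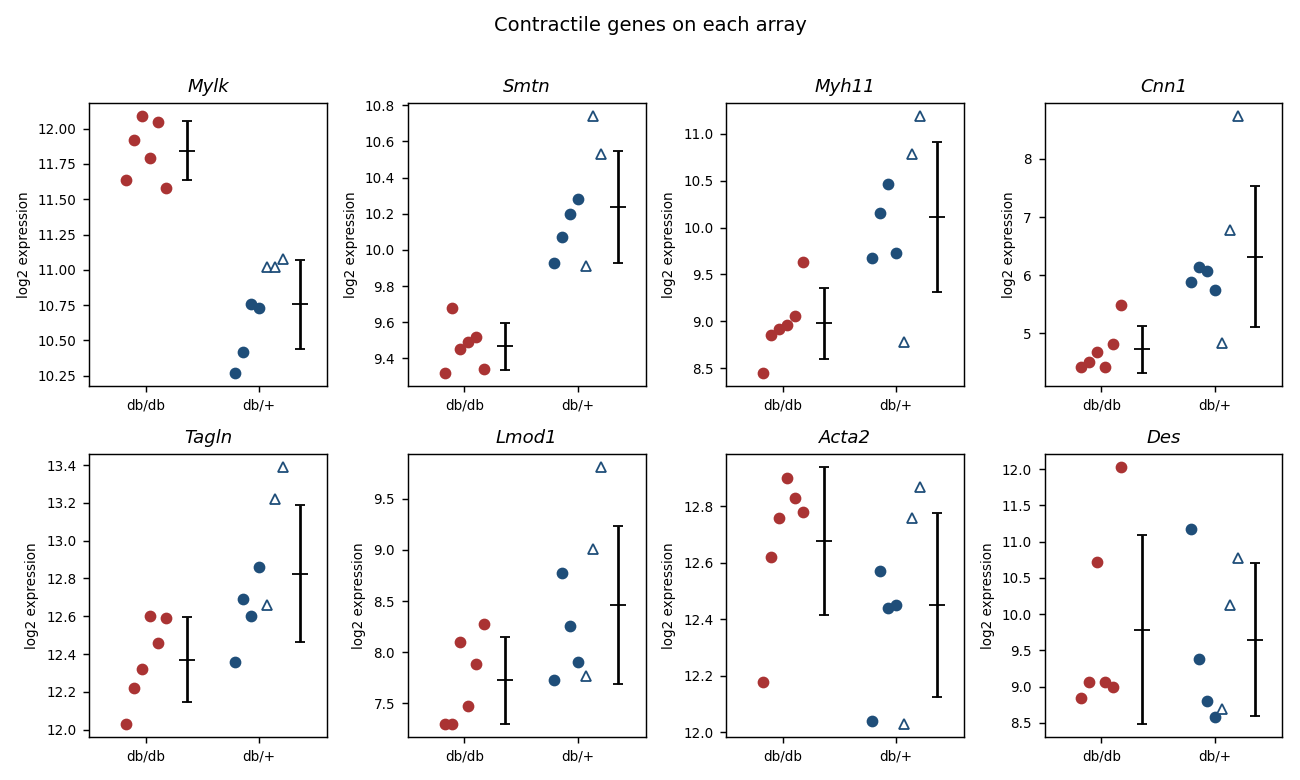
Log2 expression of the 8 contractile genes on each array, with mean and SD. Circles in red are db/db, filled blue circles db/+ 101, 103, 104 and 106, and open triangles db/+ 105, 404 and 407. Mylk and Smtn do not overlap between the groups.

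Among the pericyte genes, 2 of 6 rose over all arrays (Mcam and Notch3) and 0 fell. Mcam and Rgs5 rose with the 3 controls. The share called was 33.3% in each comparison, against 25.1% and 12.9% of all genes. Pdgfrb, Abcc9 and Cspg4 passed in neither comparison.

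Mcam (CD146) is an adhesion molecule of pericytes and endothelium that binds laminin. It read 12.12, 12.34, 12.34, 12.16, 12.33 and 12.29 on the db/db arrays, against 11.66, 11.87, 11.40, 11.29, 11.47, 11.66 and 11.30 on the db/+ arrays. Every db/db array exceeded every db/+ array. The rise was 0.74 ± 0.10 over all arrays (1.67-fold, limma adjusted p = 0.000327) and 0.84 ± 0.11 with the 3 controls (limma, adjusted p = 0.00231), and the call held without any 1 of the arrays in either comparison.

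Notch3 is the Notch receptor of mural cells. Its values were 10.29, 10.30, 10.30, 10.25, 10.34 and 10.42 on the db/db arrays, against 9.31, 9.73, 9.97, 9.90, 9.47, 10.20 and 10.24 on the db/+ arrays. The groups did not overlap, and the db/db arrays spread by less than the db/+ arrays. Notch3 rose by 0.49 (0.14 SE, limma adjusted p = 0.0267) over all arrays. Against db/+ 105, 404 and 407, which were 9.90, 10.20 and 10.24, the difference was 0.20 ± 0.10 and did not pass (limma, adjusted p = 0.225). The call was lost without db/+ 103, db/+ 106 or db/db 411.

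Rgs5, a regulator of G protein signalling abundant in pericytes, read 9.06, 9.50, 9.65, 9.02, 9.18 and 9.22 on the db/db arrays, against 9.16, 8.84, 9.41, 8.65, 8.84, 8.71 and 8.80 on the db/+ arrays. All db/db arrays lay above db/+ 105, 404 and 407, as well as 103 and 106, and overlapped db/+ 101 and 104. The difference was 0.36 ± 0.14 over all arrays (limma, adjusted p = 0.0838; exact permutation p = 0.0367) and 0.55 ± 0.15 with the 3 controls, where it passed (limma, adjusted p = 0.042). That call was lost without any 1 of db/+ 105, 404 and 407 and db/db 111, 410 and 411, and over all arrays Rgs5 passed without db/+ 104.

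The receptor for the pericyte growth signal, Pdgfrb, ranged over 11.06 to 11.20 (median 11.13) in db/db and 10.70 to 11.42 (median 11.25) in db/+, with a difference of 0.01 ± 0.11 (95% interval -0.23 to 0.25). Abcc9, a subunit of the potassium channel of pericytes and smooth muscle, differed by 0.00 ± 0.15 and the proteoglycan gene Cspg4 (NG2) by -0.01 ± 0.13. Over all arrays the groups overlapped in all of these. With the 3 controls Pdgfrb differed by -0.18 ± 0.09, Abcc9 by -0.19 ± 0.18 and Cspg4 by -0.14 ± 0.17, and none passed. Pdgfrb was there lower in db/db without overlap, with the 3 controls at 11.25 to 11.42. Of all genes, 19.0% did not overlap in that comparison.

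**Figure D3:**
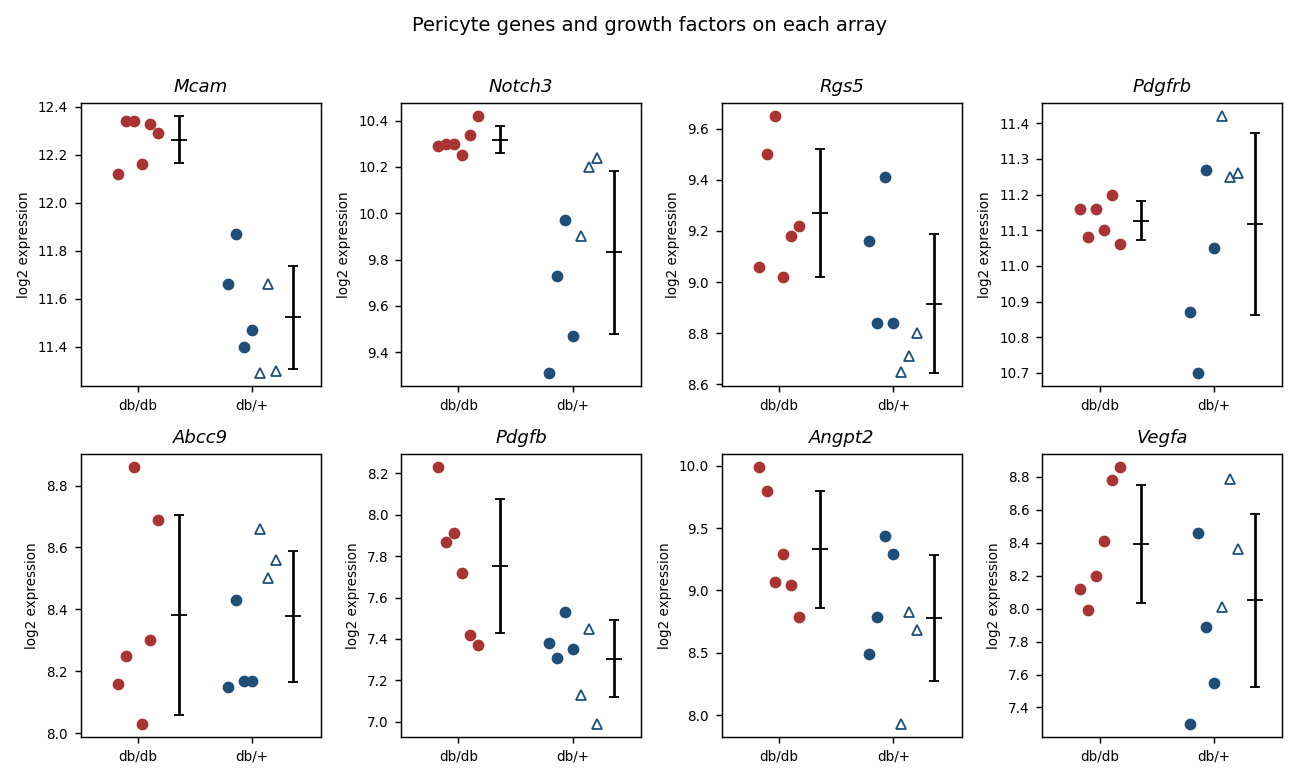
Log2 expression of pericyte genes and growth factors on each array, with mean and SD. Circles in red are db/db, filled blue circles db/+ 101, 103, 104 and 106, and open triangles db/+ 105, 404 and 407. For Mcam and Notch3 the lowest db/db array lies above the highest db/+ array, whereas Pdgfrb and Abcc9 overlap over all arrays.

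The growth factors pair with receptors on the vessel wall. Angpt1, the angiopoietin secreted by mural cells that activates the Tek receptor, read 6.72, 8.00, 7.59, 7.24, 7.03 and 7.39 on the db/db arrays, against 7.71, 7.84, 8.21, 8.37, 8.13, 8.36 and 8.24 on the db/+ arrays. Of the db/db arrays, 111 alone reached the range of db/+ when set against all 7. Angpt1 fell by 0.80 (0.19 SE, limma adjusted p = 0.00886), a 1.74-fold fall, and also fell with the 3 controls (95% interval -1.54 to -0.46, limma adjusted p = 0.0266). The second call was lost without any 1 of db/+ 105, 404 and 407 and db/db 409 and 410.

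Angpt2, the angiopoietin released by activated endothelium, read 9.99, 9.80, 9.07, 9.29, 9.04 and 8.79 on the db/db arrays, against 8.49, 8.79, 9.44, 7.93, 9.29, 8.83 and 8.68 on the db/+ arrays. The groups overlapped. The difference of 0.55 ± 0.25 did not pass (limma, adjusted p = 0.128, exact permutation p = 0.0723). With the 3 controls it was 0.85 ± 0.30 (adjusted p = 0.0944).

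Pdgfb, the endothelial ligand that recruits pericytes through Pdgfrb, read 8.23, 7.87, 7.91, 7.72, 7.42 and 7.37 on the db/db arrays, against 7.38, 7.31, 7.53, 7.13, 7.35, 7.45 and 6.99 on the db/+ arrays. It rose over all arrays by 0.45 ± 0.14 (limma, adjusted p = 0.0354) with overlapping groups, and did not pass with the 3 controls (difference 0.57 ± 0.20, adjusted p = 0.0935). The call was lost without any 1 of db/+ 103, 105, 106 and 407 and db/db 110, 111, 112 and 409. Vegfa, the main vascular growth factor, averaged 8.39 ± 0.36 in db/db and 8.05 ± 0.52 in db/+ and differed by 0.34 ± 0.24 (limma, adjusted p = 0.313).

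Among the 17 endothelial identity genes, 4 rose over all arrays (Cdh5, Esam, Flt1 and Robo4), 1 fell (Tek), and 12 did not pass. Robo4 and Esam rose and Tek fell with the 3 controls. These shares, 29.4% and 17.6%, lay near the 25.1% and 12.9% of all genes. Pecam1, the junctional adhesion gene most used to count endothelium, averaged 9.47 ± 0.30 in db/db and 9.51 ± 0.33 in db/+ (SD, n = 6 and 7), with a difference of -0.04 ± 0.17 (95% interval -0.40 to 0.32). The tyrosine kinase Tie1 differed by -0.03 ± 0.22 and endomucin (Emcn) by -0.08 ± 0.20, and neither passed. Of the 4 endothelial markers set for checking this cell type (Pecam1, Cdh5, Tie1 and Emcn), only Cdh5 was called.

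Endothelial promoters are known for sites of ETS factors. The windows of Robo4 (chr9:37401722-37401971, plus strand) and Tek (chr4:94739039-94739288, plus strand) are shown because these genes moved in opposite directions in both comparisons. Capitals mark AGGAAG or CGGAAG on either strand.
Robo4: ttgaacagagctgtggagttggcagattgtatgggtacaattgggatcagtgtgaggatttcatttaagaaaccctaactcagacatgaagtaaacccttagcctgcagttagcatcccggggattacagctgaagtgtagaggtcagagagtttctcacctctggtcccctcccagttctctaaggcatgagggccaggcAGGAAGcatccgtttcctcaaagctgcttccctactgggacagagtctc
Tek: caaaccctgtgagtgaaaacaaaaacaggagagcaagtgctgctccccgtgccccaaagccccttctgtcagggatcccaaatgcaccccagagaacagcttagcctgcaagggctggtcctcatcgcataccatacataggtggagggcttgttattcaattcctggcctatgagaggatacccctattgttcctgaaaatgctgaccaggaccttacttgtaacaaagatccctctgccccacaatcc
Robo4 held 1 match, with its first base at -49, and Tek held 0. Such a match stood in 39.2% of all 32851 promoters and in 7 of 11 windows of endothelial identity members, 63.6%, and in 10 of 29 windows of all members, 34.5%. Egfl7 gave several of the 11 windows. Only these letters were searched, so other forms of the site would be missed. A link between a match and the direction of change was not tested.

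Tek (Tie2) is the endothelial receptor of the angiopoietins. It read 10.91, 11.21, 11.71, 11.70, 11.74 and 11.72 on the db/db arrays, against 11.95, 11.80, 12.26, 12.28, 11.94, 12.28 and 12.29 on the db/+ arrays. All db/db arrays lay below all db/+ arrays. The difference was -0.61 ± 0.15 (1.53-fold lower, limma adjusted p = 0.012) over all arrays and -0.78 ± 0.20 with the 3 controls (limma, adjusted p = 0.0301). Tek was called without any 1 of the 13 arrays, and lost its call in the smaller comparison without db/+ 105, 404 or 407 or db/db 111. On arrays 404 to 411 alone, Tek and Angpt1 both fell. On arrays 101 to 112 alone Tek fell (-0.77, limma adjusted p = 0.0348), and Angpt1 did not pass (-0.62, adjusted p = 0.167).

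Robo4, a receptor of endothelial cells that stabilises vessels, read 9.55, 9.69, 9.62, 9.36, 9.60 and 9.40 on the db/db arrays, against 9.14, 9.22, 9.20, 9.13, 8.71, 9.24 and 8.94 on the db/+ arrays. The groups did not overlap, with db/db higher. Robo4 rose by 0.45 (0.10 SE, limma adjusted p = 0.0064) over all arrays and by 0.43 with the 3 controls (limma, adjusted p = 0.0352). Among the 9 arrays of the smaller comparison, leaving out db/+ 105, 404 or 407 or db/db 110, 111, 112 or 410 lost the call.

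Esam, an endothelial adhesion molecule of tight junctions, read 9.95, 10.02, 9.99, 9.99, 9.97 and 9.83 on the db/db arrays, against 9.69, 9.64, 9.95, 9.61, 9.76, 9.46 and 9.73 on the db/+ arrays. The groups overlapped through db/+ 104 and db/db 411. Esam rose by 0.27 (0.08 SE, limma adjusted p = 0.0297) and by 0.36 with the 3 controls (limma, adjusted p = 0.0358). Over all arrays the call was lost without any 1 of db/+ 103 and db/db 110, 111, 112, 409 and 410. With the 3 controls, leaving out db/+ 105 or 404 or any 1 of those 5 db/db arrays lost it.

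Cdh5, or VE-cadherin, forms the adherens junctions of endothelium. It read 7.76, 7.85, 8.00, 7.98, 7.71 and 7.76 on the db/db arrays, against 7.63, 7.51, 7.68, 7.31, 7.60, 7.65 and 7.47 on the db/+ arrays. Every db/db array lay above every db/+ array. The rise was 0.29 ± 0.08 over all arrays (limma, adjusted p = 0.0234), and the difference with the 3 controls, 0.37 ± 0.11, did not pass (adjusted p = 0.062). The call over all arrays was lost without db/db 112 or 409. Flt1, the VEGF receptor that acts largely as a decoy, rose by 0.36 (0.12 SE, limma adjusted p = 0.0386) over all arrays and differed by 0.44 ± 0.15 with the 3 controls (adjusted p = 0.0968). The call for Flt1 held only without 1 of db/+ 103, 104 and 407 and db/db 110, and was lost without any other array. Flt1 passed with the 3 controls without db/db 110 and with the number series as a block, under which Cdh5 passed too.

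The other identity genes passed in neither comparison. Kdr, the main VEGF receptor, differed by -0.16 ± 0.11 over all arrays and -0.05 ± 0.13 with the 3 controls. Cldn5, the claudin that seals the blood-nerve barrier, differed by 0.14 ± 0.23, and its db/+ 105 value of 9.81 lay apart from the other db/+ arrays at 10.83 to 11.47. Endothelial nitric oxide synthase (Nos3) ranged over 8.57 to 9.41 (median 9.09) in db/db and 7.50 to 9.45 (median 8.67) in db/+ and differed by 0.43 ± 0.26 (limma, adjusted p = 0.252).

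Vwf, the clotting glycoprotein stored in endothelium, averaged 10.41 ± 0.27 in db/db and 10.94 ± 0.53 in db/+ and differed by -0.54 ± 0.22 (limma, adjusted p = 0.0969; exact permutation p = 0.0478). Ramp2, a partner of the adrenomedullin receptor, differed by -0.18 ± 0.14 over all arrays and -0.41 ± 0.15 with the 3 controls, without passing. Over all arrays Ramp2 passed, among the settings run, only with the number series as a block. Endoglin (Eng), a co-receptor for transforming growth factor beta, differed by 0.13 ± 0.22 over all arrays and -0.29 ± 0.24 with the 3 controls. Egfl7, a protein secreted by endothelium, differed by -0.10 ± 0.09. Plvap, which forms the diaphragms of fenestrae, differed by 0.08 ± 0.17 over all arrays and -0.17 ± 0.18 with the 3 controls. For Icam2, an adhesion molecule of resting endothelium, these differences were 0.10 ± 0.20 and -0.19 ± 0.25.

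Activation genes are induced by cytokines or set the tone and clotting of the vessel. Over all arrays and with the 3 controls, 1 of 7 fell (Thbd) and 0 rose. That share, 14.3%, stood beside 25.1% and 12.9% of all genes called. Thrombomodulin, encoded by Thbd, is an anticoagulant receptor on endothelium. It read 12.35, 12.37, 12.52, 12.36, 12.29 and 12.37 on the db/db arrays, against 12.70, 12.74, 12.98, 12.99, 12.80, 13.03 and 13.10 on the db/+ arrays. The groups did not overlap, with every db/db array lower. Thbd fell by 0.53 (0.08 SE, 1.44-fold lower, limma adjusted p = 0.000855) and by 0.66 with the 3 controls (limma, adjusted p = 0.00209), and was called without any 1 of the arrays in either comparison.

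Vcam1, an adhesion molecule for leukocytes, read 9.14, 9.39, 9.44, 9.21, 8.73 and 9.19 on the db/db arrays, against 8.48, 8.60, 9.04, 8.91, 8.95, 8.70 and 9.08 on the db/+ arrays. The groups overlapped. Its difference of 0.36 ± 0.13 did not pass in limma (adjusted p = 0.0632), with an exact permutation p of 0.0245, and passed without db/+ 407 or db/db 410. Against the 3 controls it was 0.29 ± 0.16.

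Selp, or P-selectin, which captures rolling leukocytes, read 6.98, 7.34, 7.48, 8.10, 6.88 and 6.49 on the db/db arrays, against 6.15, 6.30, 6.53, 7.20, 6.35, 6.55 and 7.53 on the db/+ arrays. The groups overlapped. The difference was 0.55 ± 0.28 (limma, adjusted p = 0.157, exact permutation p = 0.0874), and 0.12 ± 0.34 with the 3 controls.

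Icam1, another leukocyte adhesion molecule, lay near 0 over all arrays and below 0 with the 3 controls, and passed in neither comparison. Other members, among them Eng, Plvap and Icam2, also lay above 0 over all arrays and below 0 with the 3 controls without passing. Icam1 ranged over 10.87 to 11.24 (median 11.12) in db/db and 10.35 to 11.71 (median 10.90) in db/+. The db/+ values were 10.35, 10.44, 10.90 and 10.88 on 101, 103, 104 and 106, and 11.25, 11.62 and 11.71 on 105, 404 and 407. The difference was 0.06 ± 0.21 over all arrays and -0.44 ± 0.13 with the 3 controls, where it did not pass (limma, adjusted p = 0.054). It passed there as lower when db/+ 105 was left out, with an intensity trend, renewed quantile normalization, a filter on dim genes or the number series as a block.

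E-selectin (Sele) read between 4.09 and 5.26 in db/db, against 3.81 to 5.64 in db/+, levels that the table, which carries no detection calls, does not separate from background. The vasoconstrictor endothelin 1 (Edn1) differed by -0.31 ± 0.28 over all arrays and -0.68 ± 0.35 with the 3 controls. For its receptor Ednrb these differences were 0.18 ± 0.20 and 0.10 ± 0.28, and for Sele -0.14 ± 0.28 and -0.65 ± 0.28. None of these genes passed in either comparison.

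**Figure D4:**
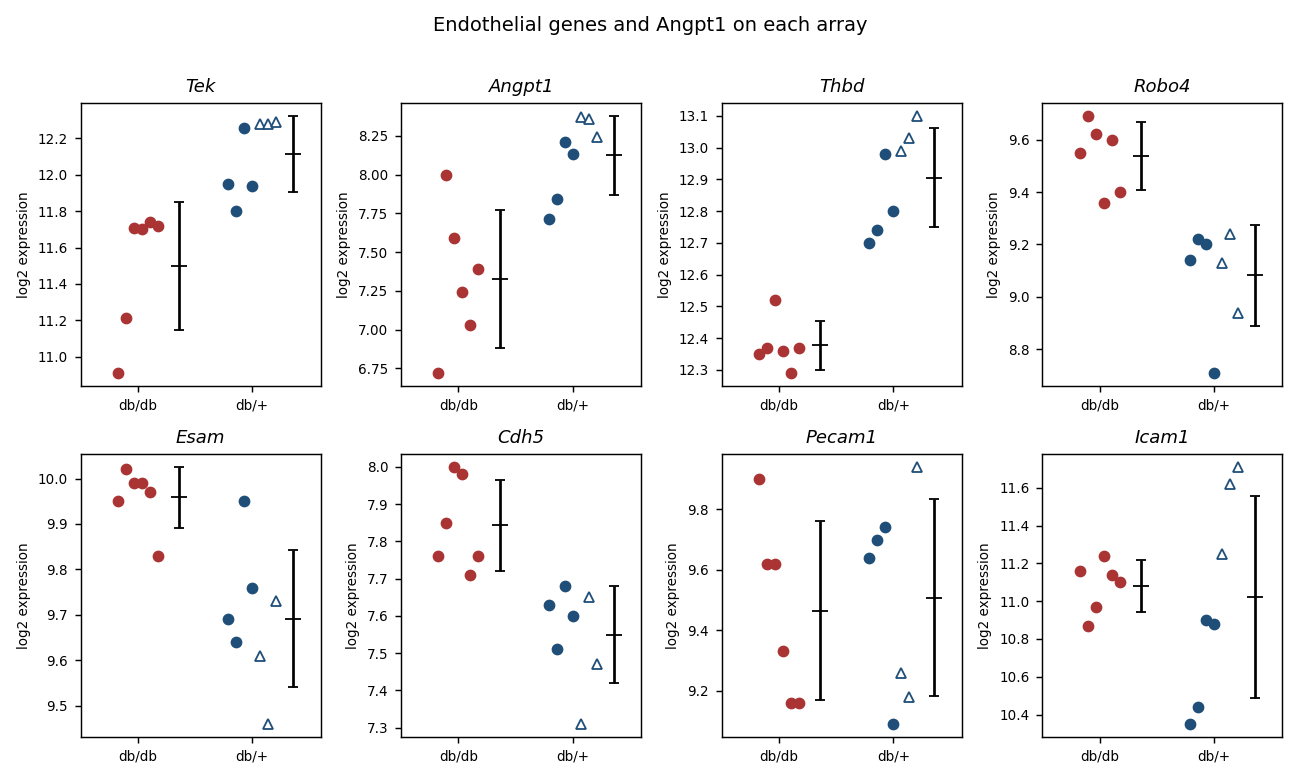
Log2 expression of endothelial genes and Angpt1 on each array, with mean and SD. Circles in red are db/db, filled blue circles db/+ 101, 103, 104 and 106, and open triangles db/+ 105, 404 and 407. The db/db arrays lie wholly below the db/+ arrays for Tek and Thbd and wholly above them for Robo4 and Cdh5, while Pecam1 and Icam1 overlap.

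Over all arrays the groups did not overlap for 8 members, 5 higher in db/db and 3 lower, against 9.68% of all genes. With the 3 controls they did not overlap for 14, 7 higher and 7 lower, against 19.0% of all genes. Members without overlap over all arrays were Cdh5, Robo4, Notch3, Mcam and Mylk (higher) and Tek, Thbd and Smtn (lower).

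The sample numbers form a lower series (3 db/db and 5 db/+ arrays) and a higher series (3 db/db and 2 db/+ arrays). All 4 db/+ arrays high in neuron markers (101, 103, 104 and 106) lie in the lower series. Of 12 neuron markers, 12 fell within arrays 101 to 112 and 0 within arrays 404 to 411. The fits by series therefore do not separate number series from neuron RNA in the controls. Within arrays 101 to 112, 9 members were called, 5 higher (Robo4, Pdgfb, Notch3, Mcam and Mylk) and 4 lower (Tek, Thbd, Cnn1 and Smtn), against 18.5% of all genes (9.85% higher and 8.67% lower). Within arrays 404 to 411, 7 were called, against 9.10% of all genes (4.93% higher and 4.17% lower). Those were Mcam, which was higher, and Tek, Thbd, Angpt1, Tagln, Myh11 and Smtn, which were lower. The difference between the series was tested by an interaction term in limma. It called 0 of 42 members and 0 of 15437 genes. At an unadjusted p below 0.05 it gave 5 members (Icam2, Icam1, Notch3, Cnn1 and Smtn), against 15.3% of all genes. With the series as a block, 18 members were called (9 higher and 9 lower), against 27.4% of all genes (14.5% higher and 12.9% lower), and Ramp2, Rgs5, Tagln and Lmod1 were added.

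Of 26 further endothelial genes, 7 rose and 4 fell over all arrays (42.3%, against 25.1% of all genes), and 4 rose and 5 fell with the 3 controls (34.6%, against 12.9%). The strongest by p were Gpihbp1, which carries lipoprotein lipase to capillaries (difference 1.71 ± 0.27), Adgrl4, an endothelial adhesion receptor (0.54 ± 0.09), and the sphingosine receptor S1pr1 (0.82 ± 0.14), all of which rose. Gpihbp1 ranged over 10.89 to 11.93 (median 11.36) in db/db and 8.89 to 10.26 (median 9.76) in db/+, without overlap.

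Of 14 other angiogenic ligands and receptors, 4 rose and 0 fell over all arrays, 28.6% and near the 25.1% of all genes, and 5 rose and 1 fell with the 3 controls, 42.9% against 12.9%. Vegfc, a ligand for lymphatic growth, rose by 1.38 (0.16 SE, limma adjusted p = 8.41e-05) and ranged over 10.04 to 10.69 (median 10.34) in db/db and 8.55 to 9.41 (median 8.96) in db/+. Angptl4, an inhibitor of lipoprotein lipase, rose by 1.33 and the hypoxia factor Hif1a by 0.68, both over all arrays. The median of the list was 0.19 over all arrays and 0.05 with the 3 controls.

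Of 11 other activation genes, 2 rose (Ccl2, a monocyte chemokine, by 1.81, and Tnfaip3, a brake on NF-kappaB, by 0.91) and 2 fell over all arrays. Against the 3 controls 0 rose and 2 fell. The shares called were 36.4% and 18.2%, against 25.1% and 12.9% of all genes. Plat, the tissue plasminogen activator, differed by -0.75 ± 0.16 and fell over all arrays. The macrophage list mean was 12.05 to 12.50 in db/db and 11.56 to 12.68 in db/+, and its part in these values was not tested.

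Of 24 other pericyte and smooth muscle genes, 1 rose and 6 fell over all arrays, and 1 rose and 3 fell with the 3 controls. These shares, 29.2% and 16.7%, lay near the 25.1% and 12.9% of all genes. Synpo2, an actin-binding protein of muscle, rose over all arrays by 3.03 (0.34 SE, limma adjusted p = 6.85e-05). Tbx18 (difference -0.86 ± 0.23) and Foxs1 (-0.80 ± 0.22), which encode transcription factors of mural cells, fell over all arrays. The median of the list was -0.41 over all arrays and -0.35 with the 3 controls.

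Of 3 lymphatic endothelial genes, 1 fell in each comparison, 33.3% against 25.1% of all genes over all arrays and 12.9% with the 3 controls. That gene was podoplanin (Pdpn), which is also made outside lymphatics, with differences of -0.34 and -0.39. Flt4 differed by -0.54 ± 0.38 and -0.70 ± 0.51, and Lyve1 by -0.04 ± 0.36 and -0.51 ± 0.45, without passing.

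**Figure D5:**
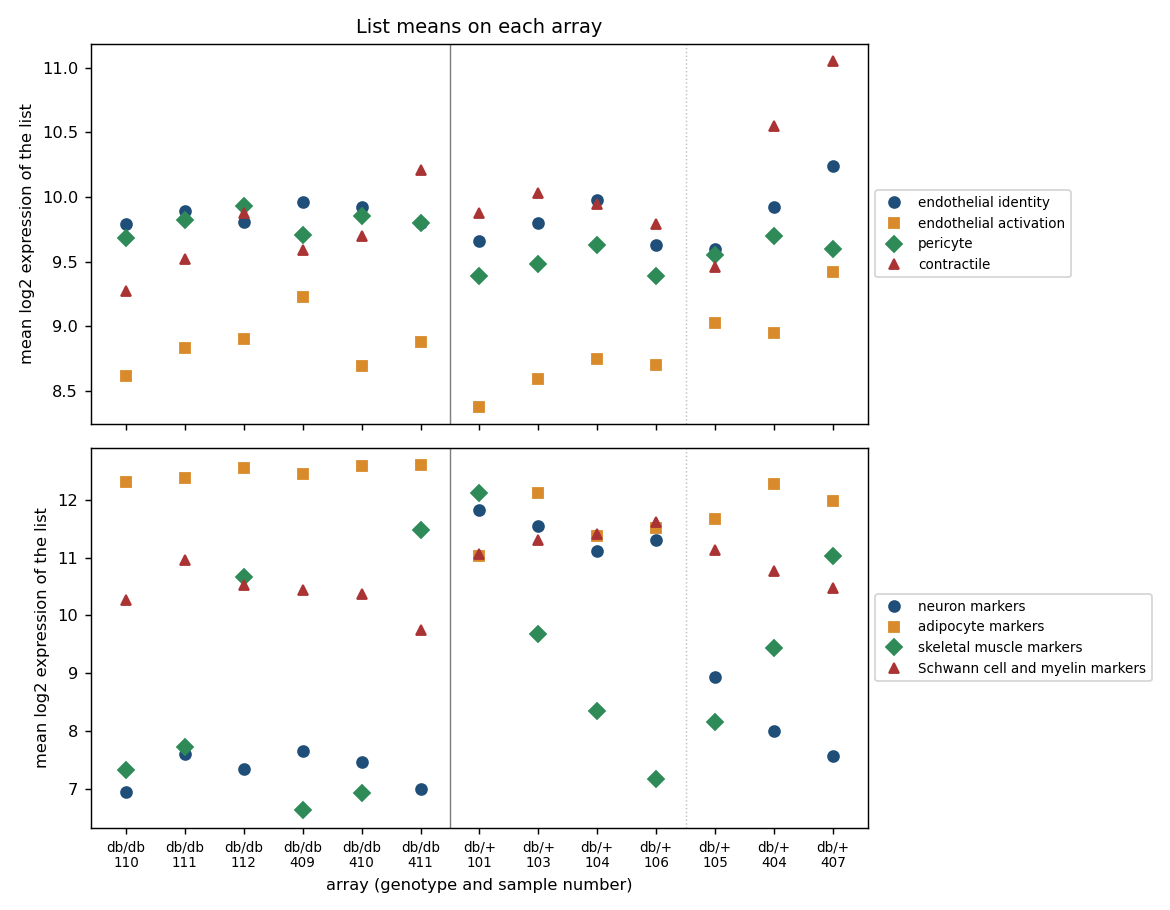
Mean log2 expression of 4 vascular roles (upper panel) and 4 cell type marker lists (lower panel) on each array, a symbol and colour per list, with the db/db arrays left of the solid line and db/+ 105, 404 and 407 right of the dotted line. The contractile mean is 11.05 on db/+ 407, against 9.46 on db/+ 105 and 9.27 to 10.21 in db/db.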

How the data were processed

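Per the labels' protocols, amplified nerve RNA carried a biotin label, and each sample had its own Affymetrix array. The authors deposited log2 expression levels, made with RMA, per the submitters' processing notes. RMA adjusts background, equalises the arrays and summarises probes, which removes differences in total signal and compresses folds of dim genes. The version of RMA and how probes were grouped were not given in the sources used here. Values ran from 1.75 to 16.37 with array medians of 8.63 to 8.71. Precision is limited by how many arrays there were.

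Of 15479 probe sets, 42 were controls and were left out, and 14801 of the other 15437 had 1 gene symbol. Groups follow the labelled genotype (6 db/db, 7 db/+). A linear model per gene with moderated variances (limma 3.58.1, R 4.3.3) gave two-sided p-values, adjusted by Benjamini-Hochberg across the 15437 genes at a threshold of 0.05. It was run on all arrays, with db/+ 105, 404 and 407 only, within each run of sample numbers, and for the difference between the runs. The fit was tested on simulated data. Single genes also had an exact two-sided permutation test over the 1716 arrangements of the 13 arrays, with p-values not adjusted for the number of genes. The members, roles and lists were chosen with earlier results of these data known.

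All members could be named. Values on every array are given for the 3 members of each role with the smallest p and for members past the threshold with the 3 controls. From each other list the 3 genes with the smallest p are named. Icam1 and Cnn1 have array values chosen after they were seen. RefSeq promoters (GRCm38.p6) were matched by symbol, giving 29 windows for 26 of 42 members. Tables and plots were made in Python 3.11.15 (pandas 2.3.3, numpy 2.4.6, matplotlib 3.10.9). Alternatives were moderation with an intensity trend, quantile normalization, median centring, array weights, a filter on dim genes, a block for the number series, and leaving out each array. The interaction with an intensity trend was added after seeing the data.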

Additional observations from a re-analysis of the deposited data

Results flagged for a closer look

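In each group every member was examined for an array far from the nearest of the others, and 3 of 84 sets of values stood apart. About 5% would do so by chance. Esam was 9.83 on db/db 411, against 9.95 to 10.02 on the other db/db arrays. Thbd was 12.52 on db/db 112, against 12.29 to 12.37 on the other db/db arrays, and still below every db/+ array. Cldn5 was 9.81 on db/+ 105, against 10.83 to 11.47 on the other db/+ arrays.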

How the results depend on the processing

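No paired analysis was possible because the groups share no sample numbers. The 14 members called over all arrays became 9 on arrays 101 to 112 alone and 7 on arrays 404 to 411 alone, and 9 to 14 when 1 array was left out. The 3867 genes called became 6525 with array weights, 1404 on arrays 404 to 411 alone and 1992 without db/+ 101, 103, 104 and 106, and 2893 to 4529 when 1 array was left out. With the 3 controls, the 10 members called became 4 to 9, and the 1992 genes called 1164 to 1749, when 1 array was left out. The lowest counts came without db/+ 404 (4 members, 1166 genes) and without db/+ 407 (5 members, 1164 genes). With the number series as a block, 14 members and 2987 genes were called with the 3 controls, 1382 higher and 1605 lower. The causes of these moves were not tested. The difference between the number series gave 0 members, also with an intensity trend.

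Median centring split the genes called with the 3 controls into 1137 higher and 827 lower, against 945 and 1047 as deposited. It left the direction of every called member. An intensity trend lost Cdh5 and Flt1 over all arrays and added Tagln. Icam1 passed as lower with the 3 controls under an intensity trend, renewed quantile normalization, a filter on dim genes or the number series as a block. With array weights Selp, Vcam1 and Vwf passed over all arrays, while Robo4 and Rgs5 were lost with the 3 controls. Mcam, Mylk, Smtn and Thbd were called in both comparisons without any 1 array. No called member changed sign under any alternative run. Whole nerve gives no measure of vessel number, and dim genes such as Sele and Cnn1 have no detection call.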
